A study of Mus musculus with 10 samples.

Results

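The genes described here encode integrins, selectins and the other surface proteins by which leukocytes hold on to vessel walls and to matrix. They were chosen by symbol from a list of 35 genes, 26 integrin subunits and 9 adhesion molecules of leukocytes, endothelium and cell junctions. Of the 35, 33 were found among the 18603 genes of the deposited count table, and 31 of those had enough reads to be tested. Sele and Itgad were not analysed here, and Itgb6 and Itgb8 were measured but fell below the low-count filter.

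RNA was sequenced from tumours that grew under the skin of female Balb/c mice from injected Renca cells, a mouse kidney cancer line. The 5 SLR14 tumours were injected with lipid nanoparticles that carried SLR14, a synthetic RNA hairpin whose 5′ triphosphate is bound by the cytosolic RNA sensor RIG-I. The 5 PBS tumours were injected with PBS alone, so SLR14 and its lipid carrier were not separated by the design. Treatment started at a tumour volume of 100 to 150 mm3, injections of 50 µL were given 3 times at intervals of 48 h, and tumours were taken 24 h after the last. All tumours came from 1 cell line, each group held 5 mice, and the age of the mice is not given in the sources used here. The comparison asks how adhesion genes in the whole tumour, cancer, immune, vascular and connective tissue cells together, differed after treatment. In such bulk RNA, fewer cells of a type and less RNA per cell cannot be told apart.

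An integrin is a pair of 1 alpha and 1 beta chain that spans the membrane. The pair decides the ligand. Alpha chains paired with Itgb2 serve leukocytes and bind Icam1 and its relatives on endothelium, while most pairs built on Itgb1 bind collagen, laminin or fibronectin in the matrix. Leukocytes leave the blood in steps: selectins on endothelium catch the glycosylated ligand Selplg, the cell rolls, integrins become active and bind Icam1 or Vcam1, and the cell crosses the junctions, where the Jam proteins sit. Inflammatory cytokines are known to raise Icam1, Vcam1, Sele and Selp on endothelium.

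None of the 31 tested members passed a Benjamini-Hochberg adjusted p of 0.05 in edgeR's quasi-likelihood test of SLR14 against PBS, where 0.963% of the 15883 genes tested did (0.674% higher and 0.29% lower). DESeq2 called 0 of 33 members, against 2.19% of its genes, and limma voom called 0 of 31, against 0.913%. At an unadjusted p under 0.05 there were 10 members, 6 with higher and 4 with lower values in SLR14 tumours, where 10.8% of all genes were below that p (5.4% higher and 5.43% lower). The members' median log2 fold change was 0.05, with 16 positive and 15 negative, against a median of -0.01 over all genes tested, of which 48% were positive. In 1 member, Itga5, the groups did not overlap, with each SLR14 tumour above each PBS tumour. Over all genes, 1.92% had such a gap with SLR14 above and 1.32% with SLR14 below.

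By role, the 8 leukocyte integrins had 7 tested members with a median log2 fold change of 0.20, 4 positive and 3 negative. The 18 platelet and matrix-binding integrins had 16 tested members with a median of 0.14, 10 positive and 6 negative. Within that set, the vitronectin, fibronectin and platelet receptors were positive in 6 of 6 (median 0.25), the laminin receptors in 3 of 4 (median 0.23) and the collagen receptors in 0 of 4 (median -0.66). The 4 tested endothelial adhesion molecules were all negative, with a median of -0.18. PBS 5 was the lowest of the 10 tumours in 14 of 31 tested members (45.2%), among them all 4 laminin receptors, and in 28.6% of all genes tested. Without PBS 5 the median was 0.07 for the leukocyte integrins, 0.08 for the laminin receptors, 0.23 for the vitronectin, fibronectin and platelet receptors and -0.71 for the collagen receptors. These medians are descriptions, and the differences between the role groups were not tested. Chains of 1 receptor can come from the same cells, so the genes of a group are not independent of each other.

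**Figure D1:**
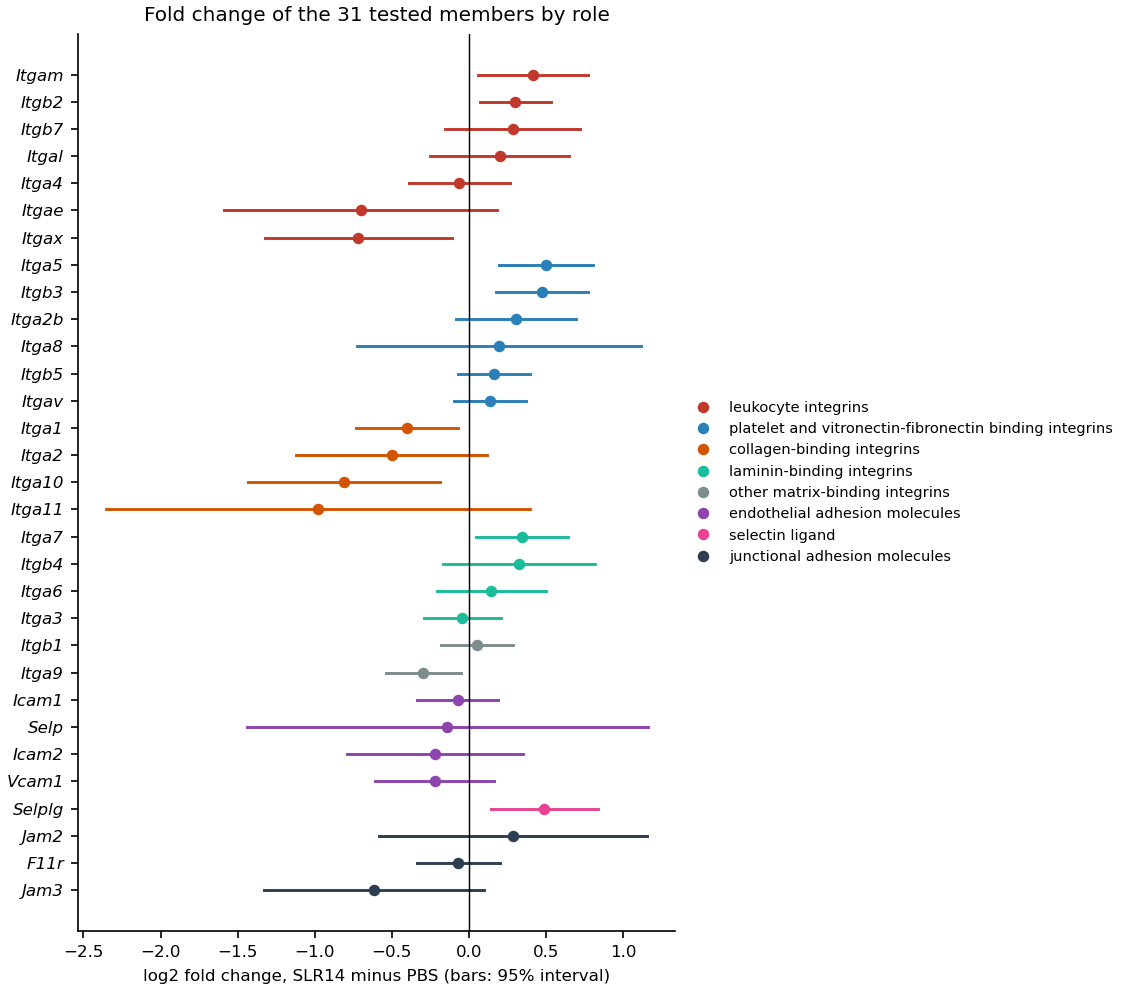
Log2 fold change of each tested member in SLR14 minus PBS tumours, with its 95% interval as a bar, grouped and coloured by role. The 4 collagen-binding integrins sit left of 0, the vitronectin, fibronectin and platelet receptors right of 0, and Itgax and Itgam of the leukocyte integrins on opposite sides.

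Totals per tumour were 17931895 to 39842608 counts in the SLR14 group and 24161644 to 34024137 in the PBS group. The members took 0.370% to 0.388% of the counts in SLR14 tumours and 0.345% to 0.386% in PBS tumours. PBS 5 and SLR14 2 stood apart from the other tumours in an earlier look at the whole data, and several results that move without them are given with both values. CPM are counts scaled by TMM to a common library size. Pax8, a kidney epithelium transcription factor, was present at 103 ± 6.92 CPM in SLR14 and 92.2 ± 16.7 CPM in PBS tumours (SD, n = 5). Of 10 epithelium and Renca markers, 6 were positive and 4 negative, 0 were called higher and 1 lower. The call was Epcam, at 0.617 ± 0.502 CPM in SLR14 and 3.45 ± 1.62 CPM in PBS tumours. Cdh16 was also lower without overlap, at 244 ± 40.9 CPM in SLR14 and 351 ± 36.0 CPM in PBS tumours (edgeR adjusted p = 0.0788). The 10 summed to 3430 to 4334 CPM in SLR14 and 3129 to 3871 CPM in PBS tumours.

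Levels between genes were compared as CPM per kilobase of merged exon. Itgb1, the shared beta chain of most matrix receptors, was highest at 305 CPM per kb in SLR14 and 295 CPM per kb in PBS tumours. Itgb5, a partner of the alpha v chain, followed at 209 CPM per kb in SLR14 and 187 CPM per kb in PBS tumours. Itga3, a laminin receptor chain of epithelium, was at 77.0 CPM per kb in SLR14 and 79.4 CPM per kb in PBS tumours, and F11r, a tight junction protein, at 53.1 CPM per kb in SLR14 and 55.7 CPM per kb in PBS tumours. Itgb2 was the highest leukocyte chain, at 30.7 CPM per kb in SLR14 and 24.9 CPM per kb in PBS tumours. Itgb8 was lowest in both groups, at 0.0160 CPM per kb in SLR14 and 0.0170 CPM per kb in PBS tumours. Neighbours such as Itgal and Itga9 (4.41 ± 1.41 and 4.37 ± 0.612 CPM per kb in PBS tumours; SD, n = 5) did not differ beyond their spread. Selp, Itga11, Itga8 and Itgb6 stood next to Itgb8 at the bottom of the PBS order.

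**Figure D2:**
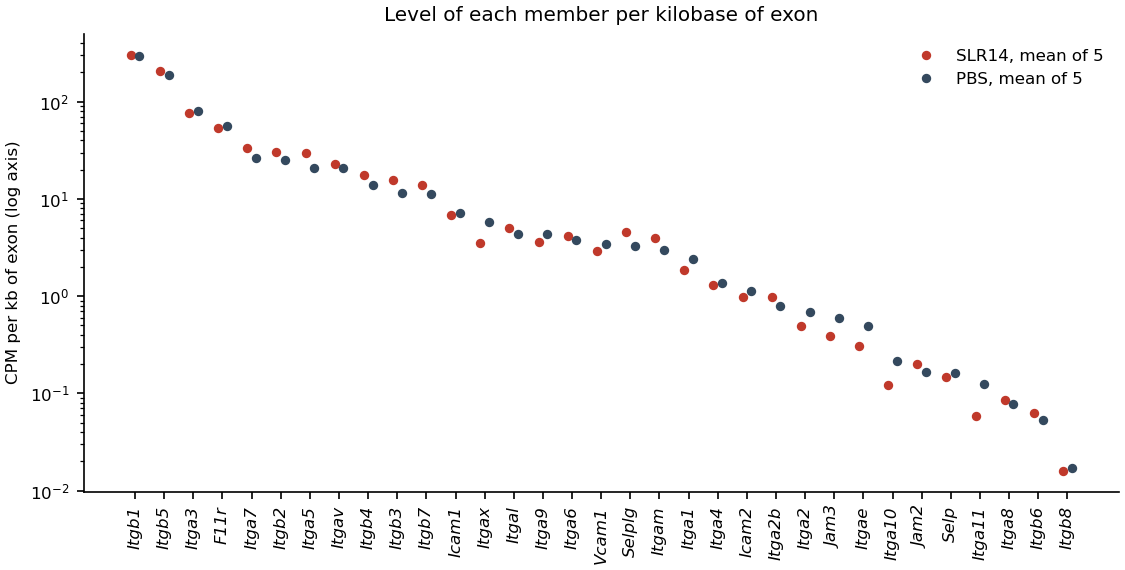
Mean level of the 33 measured members in CPM per kilobase of merged exon on a log axis, ordered by the PBS mean, with 1 point for the mean of 5 SLR14 tumours and 1 for the mean of 5 PBS tumours. Itgb1 and Itgb5 lead in both groups and Itgb8 is lowest in both.

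Among leukocyte integrins, Itgb2 and Itgam had higher means and Itgax a lower mean in SLR14 tumours, and none passed. Itgb2 (ENSMUSG00000000290), the common beta 2 chain, was at 98.0, 92.7, 101, 95.3 and 80.8 CPM in SLR14 tumours 1 to 5, against 79.9, 82.6, 69.7, 85.8 and 61.9 CPM in PBS tumours 1 to 5. Of the SLR14 tumours, 4 lay above each PBS tumour, and SLR14 5 lay inside the PBS range. The log2 fold change was 0.30 (SE 0.11, edgeR adjusted p = 0.305).

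Itgam (ENSMUSG00000030786), the alpha M chain of the complement receptor on neutrophils and macrophages, was at 23.1, 21.6, 21.8, 17.7 and 15.7 CPM in SLR14 and 16.0, 16.6, 13.7, 18.8 and 9.84 CPM in PBS tumours. Of the SLR14 tumours, 3 were above all PBS tumours and the groups overlapped (log2 fold change 0.41, SE 0.16, edgeR adjusted p = 0.384). Without PBS 5 and SLR14 2 the value was 0.26. Neutrophil markers were higher beside it: 9 of 10 listed were in the table and 4 of 8 tested were called higher, with a summed level of 92.7 to 185 CPM in SLR14 and 46.9 to 59.2 CPM in PBS tumours, most of it from Lcn2, which stressed epithelium also makes. Ly6g, a defining neutrophil marker, was not analysed here, and S100a8 averaged 3.25 ± 1.58 CPM in SLR14 and 0.735 ± 0.217 CPM in PBS tumours (SD, n = 5). The 13 monocyte and macrophage markers summed to 2828 to 3625 CPM in SLR14 and 2872 to 3326 CPM in PBS tumours, and 0 of them were called. Lyz2 and Mrc1 were the largest parts of that sum. Of the 13, 9 were positive and 4 negative (median 0.06). In edgeR 2 had an unadjusted p under 0.05, Ly6c2 and Fcgr1, both higher. Ly6c2 averaged 4.45 ± 2.08 CPM in SLR14 and 1.88 ± 0.298 CPM in PBS tumours (SD, n = 5; adjusted p in edgeR = 0.239). The part of these cells in the Itgam level was not tested.

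Itgax (ENSMUSG00000030789), the alpha X chain of CD11c on dendritic cells and many tissue macrophages, was at 23.7, 10.7, 14.5, 16.0 and 19.2 CPM in SLR14 and 25.5, 30.9, 19.4, 48.0 and 14.9 CPM in PBS tumours. Every SLR14 value lay below the PBS median of 25.5 CPM, but only 2 lay below all PBS tumours, since PBS 5 was low. The log2 fold change was -0.72 (SE 0.28, 95% interval -1.33 to -0.11, edgeR adjusted p = 0.370). PBS 4 was the highest, and without it the value was -0.43, while without PBS 5 it was -0.88. Dendritic cell markers had the same direction: of 9 listed, all in the table, 0 of 7 tested were called higher and 2 were called lower. The calls were Zbtb46, a transcription factor of conventional dendritic cells, at 2.07 ± 0.417 CPM in SLR14 and 3.94 ± 0.729 CPM in PBS tumours, and Cd209a, a lectin of monocyte-derived dendritic cells, at 0.135 ± 0.0793 CPM in SLR14 and 2.79 ± 0.783 CPM in PBS tumours (SD, n = 5). The summed level of the 9 markers was 217 to 249 CPM in SLR14 and 259 to 295 CPM in PBS tumours, most of it from Cd24a, which epithelium also expresses, and Clec9a, a marker of cross-presenting dendritic cells, was at 0 in at least 1 tumour. Their part in the Itgax level was not tested.

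**Figure D3:**
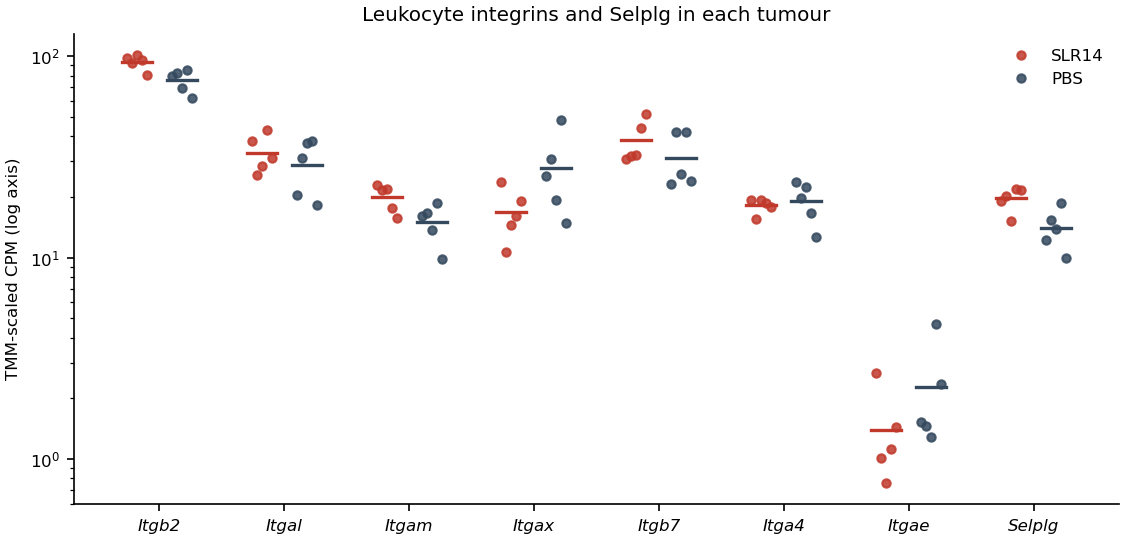
TMM-scaled CPM of 7 leukocyte integrin chains and Selplg in each tumour on a log axis, SLR14 left of PBS for each gene, with points for tumours and lines for means of 5. Itgb2, Itgam and Selplg sit higher and Itgax lower in SLR14 tumours, with overlap in each, and 1 PBS tumour is high for both Itgax and Itgae.

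Itgam, Itgax and Itgal compete for the same beta chain, so their balance was described within each tumour, a choice made after the values were seen and given without a test. Per kilobase of exon, Itgax made up 32.2%, 21.2%, 25.9%, 25.0% and 33.6% of the sum of the 3 alpha chains in SLR14 tumours, against 45.8%, 44.5%, 32.6%, 51.1% and 39.6% in PBS tumours. PBS 3 lay within the SLR14 range, and the other 4 PBS tumours lay above it. Itgam held 32.2 ± 6.68% in SLR14 and 23.3 ± 3.15% in PBS tumours, and Itgal 40.2 ± 4.89% in SLR14 and 34.0 ± 7.16% in PBS tumours (SD, n = 5). On the log2(CPM + 1) scale, Itgax minus Itgam was 0.04, -0.96, -0.56, -0.13 and 0.27 in SLR14 tumours and 0.64, 0.86, 0.47, 1.31 and 0.55 in PBS tumours. The groups did not overlap in this difference, whose mean was -0.27 ± 0.49 in SLR14 and 0.77 ± 0.34 in PBS tumours (SD, n = 5). Itgad, a further alpha partner, was not analysed here. The annotation at hand (GENCODE M21) has another gene model on the strand of Itgam, Gm49368, that overlaps 3450 bases of its exons, so reads of Itgam could be shared with it.

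**Figure D4:**
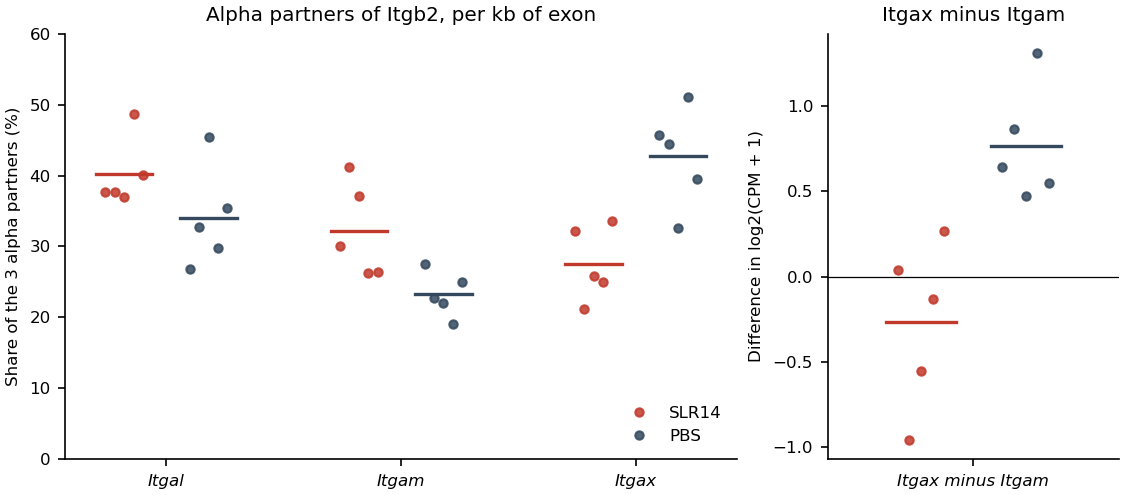
Left, share of Itgal, Itgam and Itgax in the sum of the 3 alpha chains per kilobase of exon, in percent, for each tumour, with lines for means of 5. Right, Itgax minus Itgam on the log2(CPM + 1) scale, where all SLR14 tumours lie at or below 0.27 and all PBS tumours at or above 0.47.

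Both genes lie on chromosome 7. Their promoter windows are shown because the pair shares a beta chain and pointed opposite ways, and that of Icam1, the ligand of the pair, because it is a known interferon and NF-kB target. The sequences are RefSeq's on GRCm38.p6, from 250 bases before to 50 after the annotated start, 5′ to 3′. That build is not the one named for the counts (mm39). Capitals mark matches, on either strand, to the PU.1 core GAGGAA, the STAT site TTCNNNGAA (GAS) and the interferon response core (ISRE, TTTC and TTTC with any 2 bases between).
Itgax, chr7:128129300-128129599, plus strand: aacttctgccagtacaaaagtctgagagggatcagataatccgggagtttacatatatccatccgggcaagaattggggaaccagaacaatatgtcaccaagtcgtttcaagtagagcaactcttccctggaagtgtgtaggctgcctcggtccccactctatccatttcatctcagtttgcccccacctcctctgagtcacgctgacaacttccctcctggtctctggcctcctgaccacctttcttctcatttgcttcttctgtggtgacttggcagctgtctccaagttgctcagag
Itgam, chr7:128062390-128062689, plus strand: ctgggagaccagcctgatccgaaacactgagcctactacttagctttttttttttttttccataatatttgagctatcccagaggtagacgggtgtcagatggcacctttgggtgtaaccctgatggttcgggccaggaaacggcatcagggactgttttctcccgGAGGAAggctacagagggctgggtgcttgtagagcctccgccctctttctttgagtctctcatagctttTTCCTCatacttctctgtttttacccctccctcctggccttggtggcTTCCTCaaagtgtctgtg
Icam1, chr9:21015690-21015989, plus strand: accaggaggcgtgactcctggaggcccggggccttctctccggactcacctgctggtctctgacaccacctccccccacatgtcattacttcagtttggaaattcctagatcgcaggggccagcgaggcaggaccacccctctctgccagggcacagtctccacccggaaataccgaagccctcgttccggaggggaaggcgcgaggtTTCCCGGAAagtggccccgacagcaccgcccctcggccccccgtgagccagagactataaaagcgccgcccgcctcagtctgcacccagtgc
The Itgam window held 3 matches to GAGGAA, from 84 bases before the start, from 15 bases before it and from 33 bases after it, and the Itgax window held 0 matches to the 3 motifs. The Icam1 window held 1 GAS match, 42 to 34 bases before the start, and the windows of Itga10 and Sele held 1 each. Of 32851 mouse promoter windows of this length, 28.3% held GAGGAA, 8.3% the GAS motif and 3.44% the ISRE core. Windows were at hand for 22 of the 35 members, and an ISRE match was found in those of Itga2b and Itga3. GAGGAA was also found in the windows of Itgb7, Itga2b, Itga5, Itgav, Itgb6, Itga11, Itga3, Itgb1, Sele and F11r. The matches are letters only and say nothing of binding.

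The other leukocyte chains had wide or overlapping values. Itgal (ENSMUSG00000030830), the alpha chain of LFA-1 on lymphocytes, was at 37.9, 25.8, 28.4, 42.8 and 31.3 CPM in SLR14 and 20.4, 31.1, 37.0, 38.1 and 18.2 CPM in PBS tumours. The ranges largely coincided (log2 fold change 0.20, SE 0.21, edgeR adjusted p = 0.733). Itgae (ENSMUSG00000005947), the E-cadherin receptor CD103 of resident lymphocytes and some dendritic cells, was at 2.67, 1.01, 0.761, 1.12 and 1.44 CPM in SLR14 and 1.53, 1.46, 1.28, 4.70 and 2.36 CPM in PBS tumours. PBS 4 was the highest, as for Itgax, and without it the log2 fold change was -0.24, against -0.70 with it (SE 0.41, edgeR adjusted p = 0.564). Itgb7, the beta chain of gut-homing and CD103 receptors, averaged 38.2 ± 9.09 CPM in SLR14 and 31.4 ± 9.71 CPM in PBS tumours, and Itga4, the alpha chain of the Vcam1 receptor, 18.1 ± 1.59 CPM in SLR14 and 19.0 ± 4.45 CPM in PBS tumours (SD, n = 5). The sign for Itga4 turned without PBS 1 or PBS 3 (0.03 and 0.00), and its 95% interval was -0.39 to 0.26 on the log2 scale.

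Selplg (ENSMUSG00000048163), the leukocyte ligand of the selectins, had the smallest p outside the matrix receptors. It was at 19.1, 20.3, 15.3, 22.0 and 21.7 CPM in SLR14 tumours, against 12.2, 15.3, 13.9, 18.6 and 9.91 CPM in PBS tumours. In 4 of 5 SLR14 tumours it was above all PBS tumours, and SLR14 3 was the exception (log2 fold change 0.49, SE 0.16, 95% interval 0.14 to 0.83, edgeR adjusted p = 0.258). Without PBS 5 the log2 fold change was 0.38, and without PBS 5 and SLR14 2 it was 0.37. Against a background of all leukocyte RNA, the 8 pan-leukocyte markers summed to 606 to 720 CPM in SLR14 and 493 to 619 CPM in PBS tumours, with 0 called. The mean log2(CPM + 1) of those markers was subtracted within each tumour. Selplg then lay at -1.19 ± 0.22 in SLR14 and -1.52 ± 0.30 in PBS tumours, and Itgb2 at 1.01 ± 0.14 in SLR14 and 0.85 ± 0.20 in PBS tumours (SD, n = 5). Itgax lay at -1.44 ± 0.34 in SLR14 and -0.67 ± 0.62 in PBS tumours on this scale, so the directions of the 3 genes were the same relative to the markers, with overlapping ranges. The part of leukocyte content in these levels was not tested.

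Of the vitronectin, fibronectin and platelet receptors, Itga5 and Itgb3 had the smallest p-values of all members, and neither passed. Itga5 (ENSMUSG00000000555), the fibronectin receptor alpha chain of fibroblasts and endothelium, was at 125, 159.8, 123, 160.3 and 162 CPM in SLR14 and 107, 116, 112, 110.3 and 70.4 CPM in PBS tumours. All 5 SLR14 tumours lay above all PBS tumours, by a margin of 123 against 116 CPM at the nearest pair, and PBS 5 lay far below the other 4. The log2 fold change was 0.50 (SE 0.14, adjusted p in edgeR = 0.154), and without PBS 5 it was 0.38 (adjusted p = 0.0816 in edgeR).

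Itgb3 (ENSMUSG00000020689), which pairs with the alpha v chain on endothelium and myeloid cells and with Itga2b on platelets, was at 81.2, 108, 86.7, 106 and 84.2 CPM in SLR14 and 71.2, 86.7, 55.8, 68.9 and 53.6 CPM in PBS tumours. PBS 2 lay inside the SLR14 range and the other PBS tumours lay below it (log2 fold change 0.47, SE 0.14, edgeR adjusted p = 0.181). Platelet RNA could be judged only in part: of 9 platelet and megakaryocyte markers 3 were in the table, 0 of 1 tested was called, and they summed to 14.0 to 25.2 CPM in SLR14 and 13.2 to 23.4 CPM in PBS tumours. Itga2b, the platelet alpha chain, averaged 5.36 ± 1.01 CPM in SLR14 and 4.33 ± 0.798 CPM in PBS tumours (SD, n = 5). Relative to Itgav, its alpha partner, Itgb3 lay at -1.39 ± 0.14 in SLR14 and -1.72 ± 0.15 in PBS tumours on the log2(CPM + 1) scale.

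Itgb5 (ENSMUSG00000022817), the chain with the highest CPM among these receptors, was at 799, 669, 745, 685 and 818 CPM in SLR14 and 661, 726, 598, 757 and 577 CPM in PBS tumours. The groups overlapped, with a log2 fold change of 0.16 and a 95% interval of -0.07 to 0.40. Itgav, the alpha v chain, averaged 244 ± 17.3 CPM in SLR14 and 222 ± 30.6 CPM in PBS tumours (SD, n = 5; adjusted p in edgeR = 0.662). Itga8, Itgb6 and Itgb8, partners in receptors for nephronectin and latent TGF-beta, were near the limit of detection. They had 4 to 45, 6 to 19 and 0 to 15 counts in SLR14 tumours, and 9 to 26, 7 to 18 and 1 to 12 counts in PBS tumours. Where Itgb8 had 0 counts, in SLR14 2, the depth allows up to 0.179 CPM (3 counts, covering counting error only).

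**Figure D5:**
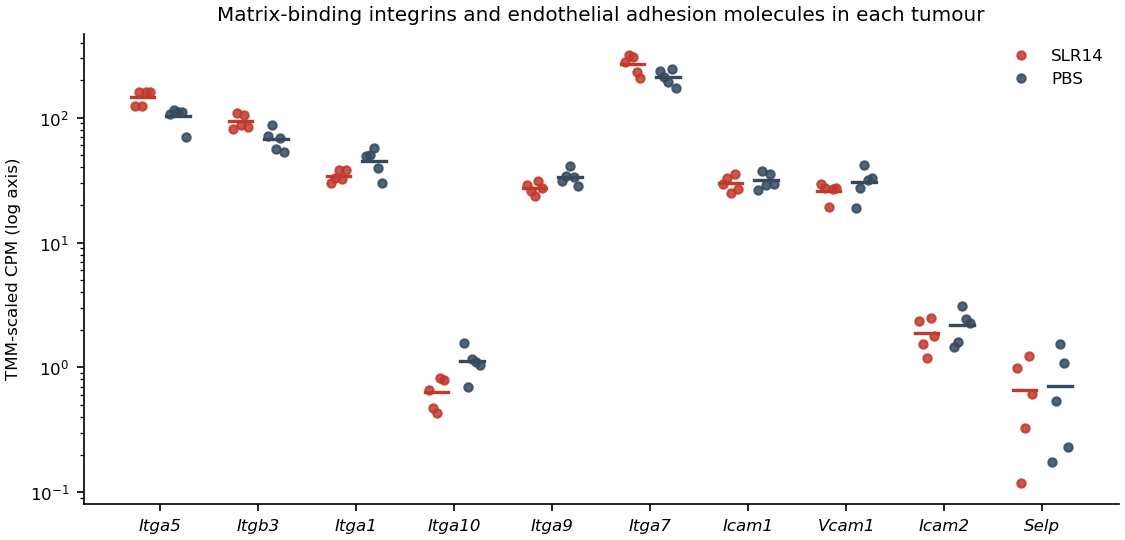
TMM-scaled CPM of 6 matrix-binding integrin chains and 4 endothelial adhesion molecules in each tumour on a log axis, SLR14 left of PBS for each gene, with points for tumours and lines for means of 5. Itga5 is the gene without overlap, Itga1, Itga10 and Itga9 have lower means in SLR14 tumours, and Icam1 and Selp cover nearly the same range in both groups.

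The collagen receptors had negative fold changes in 4 of 4 members and none passed. Itga1 (ENSMUSG00000042284), a collagen receptor of mural cells, fibroblasts and resident lymphocytes, was at 30.1, 32.9, 38.0, 32.0 and 38.0 CPM in SLR14 and 49.6, 50.1, 57.5, 39.2 and 29.9 CPM in PBS tumours. PBS 1 to 4 exceeded each SLR14 value, and PBS 5 was below all of them. The log2 fold change was -0.40 (SE 0.15, adjusted p in edgeR = 0.350), and Itga1 was called without PBS 5 (-0.52, edgeR adjusted p = 0.0392) and by limma voom with sample quality weights (-0.49, adjusted p = 0.0303). Without both PBS 5 and SLR14 2 it did not pass (-0.51, edgeR adjusted p = 0.0576).

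Itga10 (ENSMUSG00000090210), a collagen receptor known from cartilage, was at 0.656, 0.476, 0.431, 0.815 and 0.799 CPM in SLR14 and 1.57, 0.698, 1.17, 1.11 and 1.05 CPM in PBS tumours. PBS 2 was the PBS tumour inside the SLR14 range (log2 fold change -0.81, SE 0.29, edgeR adjusted p = 0.317). Itga10 had 8 to 30 counts in SLR14 and 22 to 45 counts in PBS tumours. In GENCODE M21, Gm42957 overlaps 1739 bases of Itga10 exons and Gm49395 overlaps 685 bases of Itga1 exons, both on the same strand. Reads of Itga10 and Itga1 could be shared with them. Itga11, a collagen receptor of fibroblasts, had 0 to 21 counts in SLR14 and 6 to 35 counts in PBS tumours, and its log2 fold change of -0.98 had a 95% interval of -2.36 to 0.40. Itga2, the collagen receptor of platelets and epithelium, averaged 3.48 ± 0.890 CPM in SLR14 and 4.95 ± 2.51 CPM in PBS tumours (SD, n = 5). PBS 3 held the highest Itga2 value at 9.35 CPM, and the log2 fold change was -0.14 without it and -0.50 with it.

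Fibroblast markers ran in the same direction as the collagen receptors. The 8 markers were all in the table, 0 of 7 tested were called, and all 7 fold changes were negative with a median of -0.82. They summed to 437 to 1507 CPM in SLR14 and 814 to 3317 CPM in PBS tumours. Itga1 minus the mean log2(CPM + 1) of these markers was 1.26 ± 0.58 in SLR14 and 0.93 ± 0.69 in PBS tumours (SD, n = 5). For Itga1 this was the opposite direction to that of the unadjusted level, with overlap. It was 0.58, 2.10, 1.46, 0.87 and 1.29 in SLR14 tumours and 1.37, 1.71, 1.07, -0.05 and 0.56 in PBS tumours. SLR14 2 was the highest of all tumours. The direction of the means rests in part on SLR14 2 and PBS 5, and is not established without them. Itga11 lay at -3.52 ± 0.39 in SLR14 and -3.89 ± 0.37 in PBS tumours on this scale (SD, n = 5). At 0 to 1.32 CPM, the spread of Itga11 itself is narrowed by the added 1. SLR14 2, with 0 Itga11 counts, had the highest value of all tumours, -2.99. The direction for Itga11 relative to the markers can therefore not be read from this scale. Of 9 mural cell markers, 1 was called lower, Rgs5, at 41.5 ± 8.24 CPM in SLR14 and 80.6 ± 6.20 CPM in PBS tumours (SD, n = 5). The 9 summed to 240 to 302 CPM in SLR14 and 282 to 426 CPM in PBS tumours. The part of these cells in the collagen receptor levels was not tested.

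Of the laminin receptors, 3 of 4 had positive fold changes and none passed. Itga3 (ENSMUSG00000001507), known from epithelium, was at 446, 382, 425, 439 and 506 CPM in SLR14 and 452, 478, 534, 441 and 363 CPM in PBS tumours. The ranges coincided, and the 95% interval of the log2 fold change was -0.29 to 0.20, and its sign turned without PBS 3 or SLR14 2. Itga7 (ENSMUSG00000025348), the laminin receptor of muscle, was at 281, 317, 306, 233 and 207 CPM in SLR14 and 237, 213, 193, 245 and 173 CPM in PBS tumours. SLR14 1, 2 and 3 lay above all PBS tumours (log2 fold change 0.34, SE 0.14, edgeR adjusted p = 0.388). Among the 4 laminin receptors, 1 had an unadjusted p under 0.05 in edgeR with all tumours. That number was 0 without PBS 5 and SLR14 2. SLR14 2, with the highest Itga7, had the lowest summed muscle level of all tumours, 1.43 CPM, against 39.4 to 235 CPM in the other 9. The part of muscle in the Itga7 level was not tested.

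Itgb4 (ENSMUSG00000020758), the hemidesmosome beta chain that pairs with Itga6, was at 99.8, 135, 113, 126 and 136 CPM in SLR14 and 109.6, 124, 89.5, 123 and 42.1 CPM in PBS tumours. PBS 5 was by far the lowest, and the log2 fold change was 0.32 with it and 0.12 without it (0.08 without PBS 5 and SLR14 2). Itga6 averaged 37.7 ± 6.56 CPM in SLR14 and 34.2 ± 8.03 CPM in PBS tumours (SD, n = 5; adjusted p in edgeR = 0.750).

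Of the chains with broader partners, Itgb1 (ENSMUSG00000025809) was at 1232, 1383, 1285, 1212 and 1120 CPM in SLR14 and 1244, 1351, 979, 1181 and 1255 CPM in PBS tumours. Its log2 fold change was 0.05 with a 95% interval of -0.18 to 0.28, and -0.01 without PBS 3. Itga9 (ENSMUSG00000039115), a receptor for tenascin C and for Vcam1, was at 29.0, 25.9, 23.8, 31.0 and 27.3 CPM in SLR14 and 31.3, 34.1, 41.0, 33.6 and 28.3 CPM in PBS tumours. SLR14 2, 3 and 5 lay below all PBS tumours (log2 fold change -0.30, SE 0.11, edgeR adjusted p = 0.348). Within each tumour, Itga5 minus Itgb1 was -3.09 ± 0.25 in SLR14 and -3.54 ± 0.37 in PBS tumours and Itga1 minus Itgb1 was -5.15 ± 0.21 in SLR14 and -4.73 ± 0.46 in PBS tumours, on the log2(CPM + 1) scale (SD, n = 5), with overlap in both.

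The endothelial adhesion molecules showed no called difference. Icam1 (ENSMUSG00000037405), the ligand of the beta 2 integrins, was at 29.5, 32.7, 25.1, 35.4 and 26.9 CPM in SLR14 and 26.6, 37.2, 28.7, 35.1 and 29.7 CPM in PBS tumours. The ranges nearly coincided, and the 95% interval of the log2 fold change was -0.34 to 0.19. Vcam1 (ENSMUSG00000027962), the ligand of the Itga4 receptors, was at 29.5, 27.3, 19.2, 27.0 and 27.3 CPM in SLR14 and 19.0, 27.4, 41.5, 31.5 and 32.7 CPM in PBS tumours. PBS tumours held both the lowest and the highest value (log2 fold change -0.22, 95% interval -0.61 to 0.16, edgeR adjusted p = 0.653).

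Icam2 (ENSMUSG00000001029), a constitutive ligand on endothelium, was at 2.34, 1.55, 1.19, 2.50 and 1.79 CPM in SLR14 and 1.46, 1.59, 3.09, 2.42 and 2.28 CPM in PBS tumours. Selp (ENSMUSG00000026580), the selectin stored in endothelium and platelets, was at 0.984, 0.119, 0.330, 1.22 and 0.613 CPM in SLR14 and 0.174, 0.539, 1.55, 1.08 and 0.232 CPM in PBS tumours. Both overlapped, and the 95% interval of the log2 fold change was widest for Selp of these 4 molecules, -1.44 to 1.16. The sign for Selp turned without SLR14 2, SLR14 3, PBS 3 or PBS 4. The 12 endothelial markers were all in the table with 0 called, and summed to 241 to 304 CPM in SLR14 and 201 to 352 CPM in PBS tumours. Relative to their mean log2(CPM + 1), Icam1 lay at 0.93 ± 0.25 in SLR14 and 1.00 ± 0.36 in PBS tumours (SD, n = 5). Vcam1 lay at 0.73 ± 0.22 in SLR14 and 0.92 ± 0.28 in PBS tumours, and Selp at -3.33 ± 0.37 in SLR14 and -3.30 ± 0.14 in PBS tumours (SD, n = 5). At 0.119 to 1.55 CPM, the spread of Selp itself is narrowed on this scale by the added 1.

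Of the junctional molecules, F11r (ENSMUSG00000038235), found in epithelial and endothelial tight junctions, was at 139.5, 157, 128, 145 and 138 CPM in SLR14 and 128, 133, 126, 161 and 194 CPM in PBS tumours. PBS 5 was the highest, and without it the sign of the small difference turned (log2 fold change -0.07 with it, 0.04 without it). Jam3 (ENSMUSG00000031990) was at 0.984, 1.67, 1.19, 1.07 and 1.31 CPM in SLR14 and 0.906, 2.03, 3.20, 1.08 and 2.32 CPM in PBS tumours. Jam2 (ENSMUSG00000053062), its partner on endothelium, was at 1.44, 1.07, 0.761, 1.12 and 1.73 CPM in SLR14 and 0.523, 0.571, 1.17, 2.16 and 0.581 CPM in PBS tumours. The log2 fold change of Jam2 was 0.28, and 0.79 without PBS 4, its highest tumour. Both varied more among PBS than among SLR14 tumours and did not pass (edgeR adjusted p = 0.524 and 0.797).

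The machinery around these receptors was read from 113 further genes, of which 99 were tested, 0 passed in edgeR and 19 had an unadjusted p under 0.05, 13 with higher and 6 with lower values in SLR14 tumours. That is 19 of 99 genes beside 10.8% of all genes tested. Without PBS 5 the number was 22 of 99, beside 1882 of 15883 genes. Without PBS 5 and SLR14 2 it was 23 of 99, beside 1836 of 15872 genes. PBS 5 was the lowest tumour in 47 of the 99. Of 15 tested genes of integrin activation 0 passed, and 6 were positive and 9 negative (median -0.03). Without PBS 5, 9 of the 15 were positive with a median of 0.02. The smallest p-values in this list belonged to Apbb1ip, which brings Rap1 and talin to integrins, and Fermt3, the kindlin of blood cells. Apbb1ip averaged 21.2 ± 2.12 CPM in SLR14 and 16.6 ± 1.95 CPM in PBS tumours (adjusted p in edgeR = 0.224), and Fermt3 averaged 55.9 ± 4.37 CPM in SLR14 and 44.6 ± 6.71 CPM in PBS tumours (SD, n = 5; adjusted p in edgeR = 0.259). Among 24 tested genes of the adhesion complex 0 passed and 18 were positive (median 0.15). PBS 5 was the lowest tumour in 18 of the 24, and without it 15 were positive with a median of 0.03. Ptk2b, a focal adhesion kinase of leukocytes, averaged 85.2 ± 3.97 CPM in SLR14 and 67.9 ± 9.60 CPM in PBS tumours (adjusted p in edgeR = 0.239), and Actn1, an actin crosslinker, 355 ± 9.31 CPM in SLR14 and 282 ± 56.8 CPM in PBS tumours (SD, n = 5; adjusted p in edgeR = 0.398). Neither gene overlapped between the groups. PBS 5 was lowest for both, and the log2 fold change of Actn1 was 0.33 with it and 0.21 without it.

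Of 23 tested integrin ligands 0 passed, 12 were positive and 11 negative (median 0.05, and -0.0031 without PBS 5). Edil3, a ligand of the alpha v integrins that in mice restrains neutrophil adhesion to Icam1, came nearest, at 0.164, 0.119, 0.0508, 0.204 and 0.293 CPM in SLR14 and 0.453, 0.508, 0.905, 0.629 and 0.620 CPM in PBS tumours. The groups did not overlap (log2 fold change -1.87, SE 0.41, adjusted p in edgeR = 0.0522), and DESeq2 and limma voom called it lower (adjusted p = 0.0122 and 0.0449). Edil3 had only 4, 2, 2, 4 and 11 counts in SLR14 and 13 to 24 counts in PBS tumours, so counting noise limits these values. Lama2, a laminin chain of muscle and mesenchyme, averaged 3.38 ± 0.569 CPM in SLR14 and 5.84 ± 2.22 CPM in PBS tumours (SD, n = 5; adjusted p in edgeR = 0.253), and was called without PBS 5 (edgeR adjusted p = 0.0422). Of 16 other genes of leukocyte adhesion and transmigration 0 passed and 12 were negative (median -0.06, and -0.12 without PBS 5). Alcam, an adhesion molecule of activated leukocytes and epithelium, averaged 13.0 ± 1.81 CPM in SLR14 and 10.3 ± 2.02 CPM in PBS tumours (SD, n = 5; adjusted p in edgeR = 0.448).

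Of 13 tested enzymes that glycosylate selectin ligands 0 passed, with a median of -0.12, and of -0.05 without PBS 5. Gcnt4, a core branching enzyme, averaged 0.691 ± 0.166 CPM in SLR14 and 1.28 ± 0.480 CPM in PBS tumours, and B4galt1, a galactosyltransferase, 161 ± 13.5 CPM in SLR14 and 138 ± 8.01 CPM in PBS tumours (SD, n = 5; adjusted p in edgeR = 0.265 and 0.356). Of 8 tetraspanins, membrane proteins that gather integrins, 0 passed and 6 were negative (median -0.12), against 4 of 8 positive without PBS 5 (median 0.00). Cd9 averaged 110.4 ± 7.61 CPM in SLR14 and 132 ± 32.3 CPM in PBS tumours, and Cd81 averaged 427 ± 50.3 CPM in SLR14 and 385 ± 21.0 CPM in PBS tumours (SD, n = 5; adjusted p in edgeR = 0.539 and 0.613).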

How the data were processed

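RNA was measured in 5 SLR14 and 5 PBS tumours, grouped by sample title. The deposited table of raw counts per gene (18603 genes) was used, and the deposited normalized signal, in the values each count divided by 1 factor per sample by the authors, served 1 alternative. The submitters' processing notes name mm39, STAR, DESeq2 1.36.0 and Trim Galore 0.6.7. No source used here gives the counter, its strand setting or its annotation, and reads of overlapping genes (13 members in GENCODE M21) cannot be told apart. Library protocols in the labels combine ribosomal depletion with oligo(dT) enrichment.

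Genes were filtered with filterByExpr (minimum count 10, by group), normalized with TMM and tested with edgeR 4.0.16 in R 4.3.3 (glmQLFit, glmQLFTest, no covariate), with Benjamini-Hochberg adjustment over 15883 genes at 0.05. The SE is the absolute log2 fold change divided by the square root of F, and 95% intervals follow from it. The code was tested on simulated data, with changed genes drawn from those with more counts. It called 20% of genes with a simulated absolute log2 fold change of 0.5, 78% at 1 and 100% at 1.5 and 2. Changes of 0.5 or less in members could therefore be missed. Alternatives used DESeq2 1.42.0, limma 3.58.1, other normalizations and filters, a replicate block and each tumour left out. Genes without a symbol (74, 0.0295% of counts) were kept. Each of 20 within-group pairs of tumours exceeded sampling noise (chi-square divided by its degrees of freedom 7.66 to 134), so all 10 were kept as separate samples.

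The members, lists and rule for named genes were chosen with earlier results of these data known. Values in every tumour are given for the 2 members of smallest p and the one with most CPM in each role group and for a fixed set (Itgax, Itgam, Itgal, Itgae, Itgb2, Icam1, Vcam1, Selp, Selplg, and Sele, which was not analysed here), and 2 genes of smallest p are named for each further list, except that 1 of them is not reported here. Exon lengths are merged exons of GENCODE M21 on GRCm38. Ratios between genes use log2(CPM + 1). Nothing in the sources gives the tumours a batch.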

Additional observations from a re-analysis of the deposited data

Results flagged for a closer look

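In 122 groups of 5 tumours examined (members, named further genes and summed markers, 2 groups each), 11 held 1 tumour far from the other 4, where chance flags about 1 group in 20. Among members these were Itga5 in PBS 5 (70.4 CPM), Itgav in SLR14 2 (275 CPM), Itgb6 in SLR14 4 (0.968 CPM, 19 counts), Itga2 in PBS 3 (9.35 CPM) and Vcam1 in SLR14 3 (19.2 CPM). Among further genes they were Ptk2b in PBS 5 (51.2 CPM) and B4galt1 in SLR14 2 (185 CPM). Summed keratinocyte markers stood out in SLR14 5 (122 CPM) and PBS 4 (65.1 CPM), and summed erythroid markers in SLR14 4 (98.3 CPM) and PBS 5 (173 CPM). What sets these tumours apart was not tested.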

How the results depend on the processing

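The count of members called was 0 under 18 of 20 alternatives and 1 (Itga1) with sample quality weights in limma voom and without PBS 5. Over the fits that left out 1 tumour it was 0 to 1, and members with an unadjusted p under 0.05 numbered 6 to 12, with 6 without SLR14 3 and 6 without PBS 3. Genes called in all numbered 153, 407 with DESeq2, 349 with sample quality weights, and 69 to 194 without 1 tumour (leaving out SLR14 1 gave 77, SLR14 3 gave 75, SLR14 4 gave 89, PBS 1 gave 69 and PBS 3 gave 78). Without both PBS 5 and SLR14 2, chosen with their distance known, 215 genes and 0 members were called.

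Some small fold changes turned sign. With sample quality weights Selp was 0.056 and F11r 0.023. Without 1 tumour, Selp ranged from -0.45 to 0.33, F11r from -0.12 to 0.040, Itga8 from -0.20 to 0.47, Itga4 from -0.18 to 0.028, Itgb1 from -0.0095 to 0.098 and Itga3 from -0.12 to 0.023. The cause was not tested.

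Replicate numbers are shared by the groups, and r across genes between same-numbered tumours was -0.25, 0.14, -0.01, -0.10 and -0.19. No values for differently numbered pairs are set beside these, so they cannot settle whether same-numbered tumours shared a handling step. The numbers are used here only to name tumours. With a replicate block 78 genes and 0 members were called. Counting noise limits Itga8, Itga10, Itga11, Itgb6, Itgb8 and Selp, and Edil3 of the further genes.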
